A study of Mus musculus with 9 samples.

Results

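The 38 genes described here encode the core machinery of macroautophagy and 5 of its cargo receptors. They were chosen by gene symbol, from a list that covers each step of the pathway. All 38 were found by symbol in both deposited expression tables, among 24187 genes in all, and all 38 had enough reads to be tested in all 3 comparisons. The cells were bone-marrow-derived macrophages, which are macrophages grown in culture from the bone marrow of C57BL/6 mice, here of postnatal week 8. Marrow cells from tibias and femurs had been kept for 6 days in DMEM with fetal bovine serum and 10 ng/ml M-CSF, the growth factor that drives macrophage differentiation. One group of cultures then received 500 ng/ml lipopolysaccharide (LPS), a bacterial cell wall component sensed by Toll-like receptor signalling, together with 50 µM NCT503 for 6 h. NCT503 is a small-molecule inhibitor of PHGDH, the first enzyme of serine synthesis from glucose. A further group received 500 ng/ml LPS alone for 6 h, and the control group stayed in complete DMEM for 6 h. There were 3 RNA-seq libraries in each group. The labels name no vehicle for the LPS and control cultures, and no group of NCT503 without LPS was analysed here, so an action of NCT503 on resting cells cannot be told apart from its action on the LPS response. The comparisons ask how LPS changes the transcripts of the autophagy pathway, how they differ when PHGDH is inhibited during the stimulus, and how far the combined treatment stands from resting cells.

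Autophagy encloses cytoplasm in a double membrane, the autophagosome, and delivers it to the lysosome. The ULK1 kinase complex starts the process, a class III phosphatidylinositol 3-kinase (PI3-kinase) complex marks the membrane, ATG9 and ATG2 proteins supply lipid, and 2 ubiquitin-like conjugation systems attach ATG8 family proteins to it. Cargo receptors bind both the cargo and ATG8 proteins, and tethers such as EPG5 help the autophagosome to fuse with the lysosome. In macrophages the pathway degrades intracellular bacteria and damaged organelles and restrains inflammatory signalling. Transcript levels measure the supply of these components and not autophagic flux, which was not measured here.

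Transcription factors of the TFEB family bind the E-box core CACGTG, ATF4 binds composite sites such as TGATGNAA, and NRF2 binds the antioxidant response element, whose core is TGACNNNGC. All 3 motifs were searched on both strands, with overlaps between motifs allowed, in windows of 250 bases before to 50 bases after each transcript start, taken from RefSeq on GRCm38.p6. A window was found for 31 of the 38 genes, 37 windows in all. The E-box core was in 4 of the 37 windows (10.8%, against 7.15% of 32851 windows of all genes), those of Atg3, Atg5, Atg7 and Atg14. The ATF4 site was in 0 of the 37 (3.97% of all windows), and the antioxidant core was in 7 (18.9%, against 12.4%), in Atg13, Tax1bp1, Map1lc3b, Ulk2 and Vmp1. Windows of 4 genes are shown. Those of Sqstm1 and Optn belong to the 2 of the 38 genes with the largest log2 fold changes in LPS + NCT503 relative to control. They hold none of the 3 motifs in these letters. Those of Atg3 and Atg14 hold E-box cores, printed in capitals, whose first bases lie at -94 and -71 from the start of Atg3 and at -1 from the start of Atg14. Each runs 5′ to 3′ on the strand of its gene. A match describes the letters and is not a binding site.
Sqstm1, chr11:50210771-50211070, minus strand: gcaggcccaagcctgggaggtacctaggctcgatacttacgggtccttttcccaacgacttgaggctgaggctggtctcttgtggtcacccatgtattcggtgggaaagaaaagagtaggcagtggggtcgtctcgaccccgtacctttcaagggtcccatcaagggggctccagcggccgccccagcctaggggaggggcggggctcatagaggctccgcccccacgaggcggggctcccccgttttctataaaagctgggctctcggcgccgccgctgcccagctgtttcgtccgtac
Optn, chr2:5064068-5064367, minus strand: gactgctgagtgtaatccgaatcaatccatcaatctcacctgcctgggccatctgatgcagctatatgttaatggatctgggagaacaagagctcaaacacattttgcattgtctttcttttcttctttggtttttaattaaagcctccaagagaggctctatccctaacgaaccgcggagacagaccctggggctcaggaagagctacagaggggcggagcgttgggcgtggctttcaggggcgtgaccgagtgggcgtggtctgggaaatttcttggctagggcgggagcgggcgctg
Atg3, chr16:45158579-45158878, plus strand: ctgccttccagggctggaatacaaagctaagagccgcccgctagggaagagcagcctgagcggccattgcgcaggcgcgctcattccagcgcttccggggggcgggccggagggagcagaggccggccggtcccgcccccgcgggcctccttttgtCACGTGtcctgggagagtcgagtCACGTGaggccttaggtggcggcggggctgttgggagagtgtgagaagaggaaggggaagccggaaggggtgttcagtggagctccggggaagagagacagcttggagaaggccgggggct
Atg14, chr14:47568385-47568684, minus strand: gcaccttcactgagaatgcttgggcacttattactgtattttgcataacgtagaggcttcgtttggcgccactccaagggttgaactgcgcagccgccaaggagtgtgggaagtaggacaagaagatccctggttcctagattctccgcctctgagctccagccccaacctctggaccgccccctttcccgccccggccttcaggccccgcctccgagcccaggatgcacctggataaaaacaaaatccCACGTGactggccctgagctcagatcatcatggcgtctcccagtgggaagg

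Levels below are normalized reads, that is, the reads of a gene after division by the size factor of its library, with 1 set of size factors over all 9 libraries. Fold changes come from each comparison's own fit with limma on log2(normalized reads + 1), are given on the log2 scale ± SE, and understate the change of genes with few reads. A gene is said to have risen or fallen where its Benjamini-Hochberg adjusted p over all genes tested was under 0.05. The libraries held 20295862 to 23599685 reads over the 21434 genes shared by both tables, with size factors of 0.733 to 1.46. All 8 macrophage markers searched were detected, with summed levels of 204174 to 265680 normalized reads in LPS + NCT503, 423359 to 473403 in LPS and 270951 to 347154 in control libraries. Of these 8 genes, 4 rose in LPS relative to control, 4 fell in LPS + NCT503 relative to LPS, and 1 rose and 3 fell in LPS + NCT503 relative to control. The summed level of 6 neutrophil genes was 169 to 397 normalized reads in LPS + NCT503, 1897 to 4308 in LPS and 3365 to 5942 in control libraries. All 6 fell in LPS + NCT503 relative to LPS. The 7 fibroblast and stromal genes summed to 16085 to 41325, 16018 to 34547 and 5463 to 25335 normalized reads in the same 3 groups, and 5 mast cell and basophil genes to 212 to 243, 734 to 995 and 620 to 711. The T and natural killer cell list of 6 genes summed to 3158 to 5182, 2032 to 2535 and 3864 to 6487 in these groups, while by gene 2 rose and 1 fell in LPS relative to control, 1 rose and 4 fell in LPS + NCT503 relative to LPS, and 2 fell in LPS + NCT503 relative to control. The 3 B cell genes used summed to 14 to 38, 16 to 49 and 81 to 93, and the erythroid genes to 20 to 25, 17 to 55 and 22 to 36, in the same order of groups. The part of these cell types in the results below was not tested. In bulk RNA, fewer cells of a type and less RNA per cell cannot be told apart. Library preparation was not described beyond standard Illumina protocols and no strand setting is given. The exons of 13 of the 38 genes overlap those of another gene, and where this concerns over 15% of a gene's exon bases it is stated with the gene.

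Among the 38 genes, the largest difference in each comparison was in a cargo receptor. Sqstm1, which encodes p62, and Optn, which encodes optineurin, rose in all 3 comparisons, with log2 fold changes of 2.05 ± 0.21 and 0.97 ± 0.21 in LPS macrophages relative to control, 1.36 ± 0.18 and 3.38 ± 0.23 in LPS + NCT503 macrophages relative to LPS, and 3.41 ± 0.19 and 4.34 ± 0.22 in LPS + NCT503 macrophages relative to control. The other members differed in both directions. With LPS, 13 of the 38 genes rose and 14 fell relative to control, while 20.5% of the 19975 genes tested rose and 21.4% fell. The median log2 fold change of the 38 was -0.15, and that of all genes was -0.05. In LPS + NCT503 macrophages 14 rose and 5 fell relative to LPS, where 16.9% of 19795 genes rose and 15.7% fell, with medians of 0.19 for the 38 and 0.08 for all genes. Relative to control, 11 rose and 7 fell in LPS + NCT503 macrophages, where 20.7% of 19930 genes rose and 19.7% fell, with medians of 0.16 for the 38 and 0.05 for all genes. These shares include genes down to a group mean of 1 normalized read, while the lowest group mean of a member was 58.8 (Atg10 in LPS + NCT503). With edgeR, which kept fewer genes, 12 of the 38 rose and 14 fell in LPS relative to control, beside 3634 and 4135 of 13739 genes. In LPS + NCT503 it was 16 and 5 relative to LPS, beside 3212 and 2886 of 13300. Relative to control it was 11 and 8, beside 3566 and 3982 of 14086. The first and second comparisons share the LPS libraries, and the third shares libraries with each of them, so their values are not independent.

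These splits depend on how libraries are scaled to each other, and so do the shares of all genes. With each library scaled to its total read count (CPM), the split in LPS macrophages relative to control was 5 higher and 25 lower, where 10.3% of all genes tested were higher and 42% lower. In LPS + NCT503 macrophages relative to LPS the CPM split was 17 higher and 3 lower, beside 21.9% and 10.6% of all genes, and relative to control it was 4 higher and 13 lower, beside 12.2% and 32.7%. Under quantile normalization the split was 8 higher and 19 lower for LPS relative to control, where 18.4% of all genes were higher and 23% lower, and 8 higher and 10 lower for LPS + NCT503 relative to control, where 18% were higher and 24% lower. CPM scaling moved the median log2 fold change of all genes tested by -0.63, 0.23 and -0.42 in the 3 comparisons, TMM scaling moved it by -0.11, 0.01 and -0.08, and quantile normalization by -0.05, -0.10 and -0.14. With a log2 fold change of at least 1 in size also required, 5 members were higher and 7 lower in LPS relative to control (13.6% and 15% of all genes), 10 and 2 in LPS + NCT503 relative to LPS (12.6% and 9.51%), and 4 and 3 in LPS + NCT503 relative to control (14.6% and 12.9%). The count of 5 lower genes in LPS + NCT503 relative to LPS was 3 without LPS + NCT503 replicate 1, without LPS + NCT503 replicate 3, without LPS replicate 2 or without LPS replicate 3. Over all genes tested, the lower calls went from 3098 to 2433, 2121, 2322 and 2122 in the same order. The count of 11 higher genes relative to control was 7 without control replicate 2, where that of all genes went from 4134 to 3089. The count of 7 lower genes in that comparison was 4 without LPS + NCT503 replicate 1 or 3, and 3 without control replicate 2 or 3. For all genes it went from 3927 to 3217 and 3020, and to 2719 and 2939. Calls that held under all 15 alternatives in pseudocount, filter, scaling, tool, samples fitted or library left out numbered 17 of 27 in LPS relative to control, 14 of 19 in LPS + NCT503 relative to LPS and 7 of 18 in LPS + NCT503 relative to control.

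**Figure D1:**
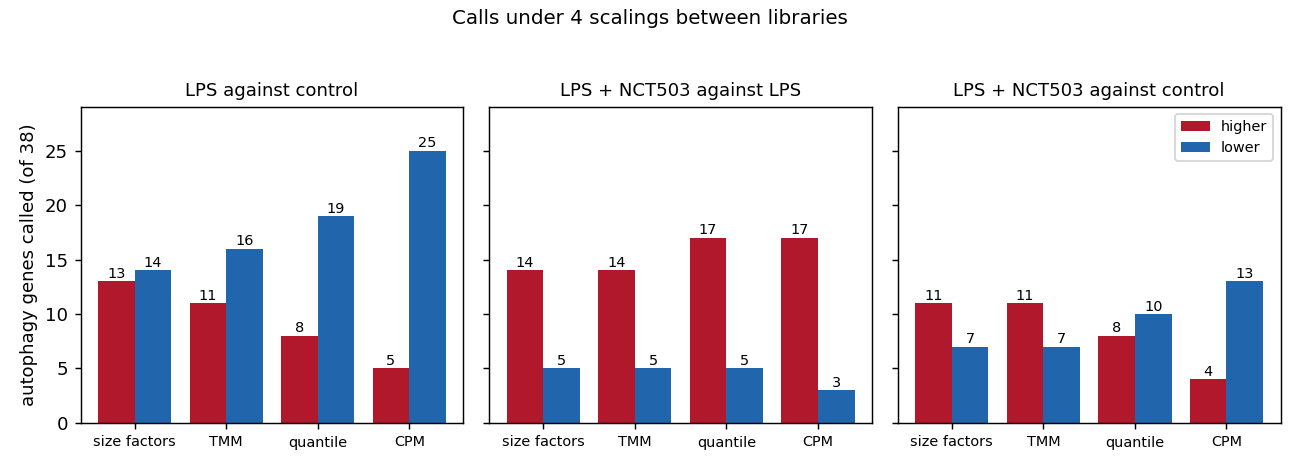
Number of the 38 autophagy genes with an adjusted p under 0.05 (vertical axis) that were higher (red) or lower (blue), in each of the 3 comparisons, under 4 ways of scaling the libraries (horizontal axis). The bars for LPS against control run between 13 higher and 14 lower with size factors and 5 higher and 25 lower with CPM.

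**Figure D2:**
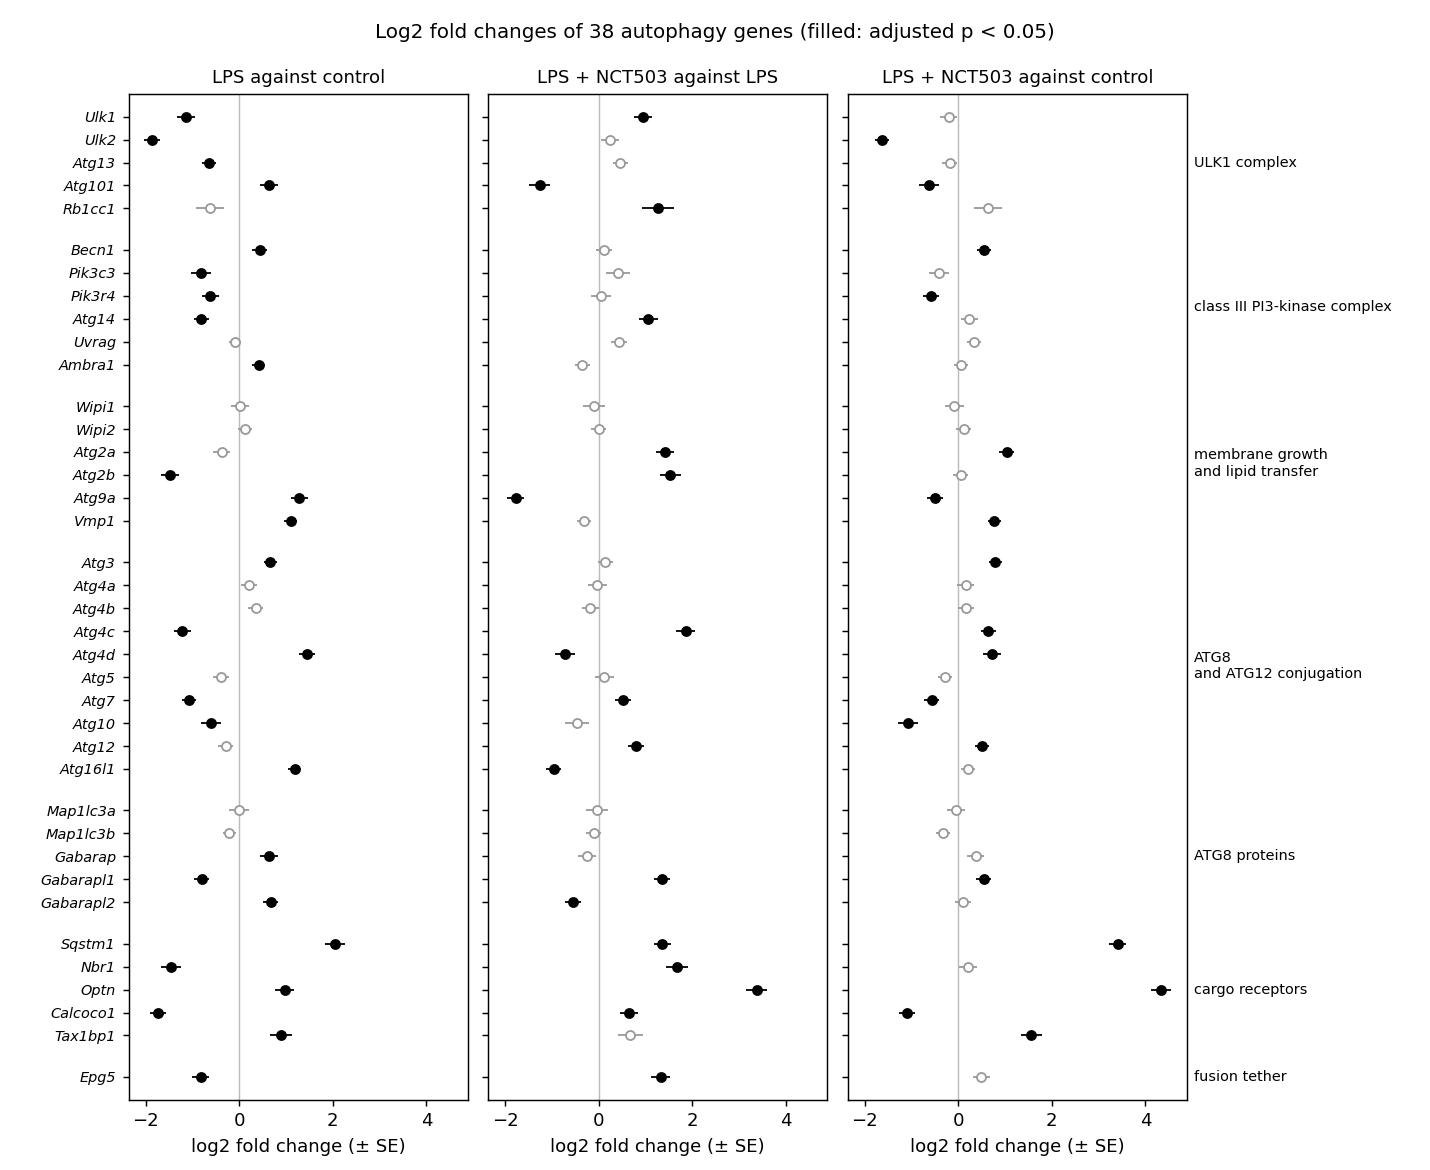
Log2 fold change (horizontal axis, with its SE as a bar) of each of the 38 genes in the 3 comparisons, grouped by role, with filled points for an adjusted p under 0.05. Sqstm1 and Optn lie farthest to the right in LPS + NCT503 relative to control, at 3.41 and 4.34, and Ulk2 farthest to the left at -1.62.

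Transcripts of both kinases of the ULK1 complex fell in LPS macrophages relative to control. Of its 5 genes, 1 rose and 3 fell in LPS relative to control, 2 rose and 1 fell in LPS + NCT503 relative to LPS, and 2 fell while 3 did not pass in LPS + NCT503 relative to control. The shares of all genes that rose and fell were 20.5% and 21.4%, 16.9% and 15.7%, and 20.7% and 19.7% in that order. They stand beside each count by role below as well, and whether any role differed from other genes was not tested. Ulk1, the kinase that receives signals from mTORC1 and AMPK, had 874, 1083 and 924 normalized reads in LPS + NCT503 libraries, 450.4, 609.6 and 448.5 in LPS libraries and 882, 1156 and 1300 in control libraries. Every LPS library lay below every library of the other groups. Ulk1 fell in LPS relative to control (-1.14 ± 0.19, adjusted p = 0.000525) and rose in LPS + NCT503 relative to LPS (0.94 ± 0.19, adjusted p = 0.00301), and the difference between LPS + NCT503 and control was -0.20 ± 0.18 (adjusted p = 0.412, and -0.65 under CPM scaling, adjusted p = 0.00724). Its paralogue Ulk2 had 374, 327 and 363 normalized reads with LPS + NCT503, 366, 265 and 275 with LPS and 1204, 1083 and 1002 in control libraries. Control libraries stood apart from all 6 others, and the LPS + NCT503 and LPS libraries overlapped. Ulk2 fell in LPS (-1.86 ± 0.17, adjusted p = 4.94e-06) and in LPS + NCT503 (-1.62 ± 0.15, adjusted p = 1.66e-05) relative to control, and differed by 0.24 ± 0.20 between LPS + NCT503 and LPS (adjusted p = 0.37).

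Among the scaffold subunits of that complex, Atg101 was lower and Rb1cc1 higher in LPS + NCT503 than in LPS macrophages. Atg101, which stabilises ATG13, had 274, 405 and 268 normalized reads in LPS + NCT503, 636, 905.5 and 719 in LPS and 403, 474 and 575 in control libraries. It was lower in LPS + NCT503 than in LPS in every library (-1.26 ± 0.22, adjusted p = 0.00117). It also rose in LPS relative to control (0.64 ± 0.19, adjusted p = 0.0165) and fell in LPS + NCT503 relative to control (-0.63 ± 0.21, adjusted p = 0.0369, groups overlapping). The rise was lost without LPS replicate 2 or 3 or control replicate 1 or 2 (adjusted p 0.053 to 0.0643) and its sign was negative under CPM scaling, and the fall was lost without LPS + NCT503 replicate 1 or 3 or control replicate 2 or 3 (adjusted p 0.101 to 0.147). Rb1cc1, which encodes the large scaffold FIP200, had 596, 309 and 636 normalized reads in LPS + NCT503, 327, 150 and 169 in LPS and 414, 341 and 221 in control libraries, with all groups overlapping. Rb1cc1 rose in LPS + NCT503 relative to LPS (1.27 ± 0.34, adjusted p = 0.0134), a call lost without LPS + NCT503 replicate 1 or 3 or LPS replicate 2 or 3 (adjusted p 0.0555 to 0.0684). Rb1cc1 is among the longest 10% of genes, taken over those that averaged 50 or more normalized reads. The median log2 deviation of these 1069 long genes from the mean of their group was 0.17, -0.28 and 0.11 in LPS + NCT503 replicates 1 to 3, 0.21, -0.17 and -0.05 in LPS and 0.16, 0.00 and -0.14 in control, and Rb1cc1 was likewise lowest in LPS + NCT503 replicate 2 and highest in LPS and control replicate 1. The part of transcript length in its differences was not tested. Atg13, the regulatory subunit, fell in LPS relative to control (-0.64 ± 0.15, adjusted p = 0.00524) and did not pass in the other comparisons (0.47 ± 0.17 for LPS + NCT503 relative to LPS, adjusted p = 0.0565). With edgeR and DESeq2 it rose in LPS + NCT503 relative to LPS.

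In the class III PI3-kinase complex the autophagy-specific subunit Atg14 showed the largest difference, between LPS + NCT503 and LPS. Of 6 genes, 2 rose and 3 fell in LPS relative to control, 1 rose and 5 did not pass in LPS + NCT503 relative to LPS, and 1 rose and 1 fell in LPS + NCT503 relative to control. Atg14, which directs the complex to sites of autophagosome formation, had 526, 385 and 563 normalized reads in LPS + NCT503, 248, 218 and 235 in LPS and 383, 403 and 448 in control libraries. All LPS libraries lay below all others, while LPS + NCT503 and control overlapped. Atg14 fell in LPS relative to control (-0.81 ± 0.16, adjusted p = 0.00167) and rose in LPS + NCT503 relative to LPS (1.05 ± 0.20, adjusted p = 0.00217), and the difference between LPS + NCT503 and control was 0.24 ± 0.18 (adjusted p = 0.333). Becn1, which encodes the complex's scaffold Beclin 1, had 1822, 1691 and 1606 normalized reads in LPS + NCT503, 1873, 1379 and 1505 in LPS and 1281, 1130 and 1087 in control libraries. Control libraries were the lowest 3. It rose in LPS + NCT503 relative to control (0.55 ± 0.14, adjusted p = 0.0115) and in LPS relative to control (0.44 ± 0.16, adjusted p = 0.0435), and differed by 0.12 ± 0.17 between LPS + NCT503 and LPS (adjusted p = 0.633). The rise in LPS was lost with edgeR, under TMM and quantile scaling and without LPS replicate 1 or 3 or control replicate 2 or 3 (adjusted p 0.0948 to 0.152), and was negative under CPM scaling. That in LPS + NCT503 was lost without LPS + NCT503 replicate 1 or control replicate 2 or 3 (adjusted p 0.0512 to 0.0716), and under CPM and quantile scaling. Exons of Cntd1 on the opposite strand cover 43.9% of the exon bases of Becn1.

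The catalytic lipid kinase Pik3c3 fell in LPS relative to control (-0.82 ± 0.21, adjusted p = 0.00931). It did not pass in LPS + NCT503 relative to LPS (0.42 ± 0.26, adjusted p = 0.245) or relative to control (-0.41 ± 0.22, adjusted p = 0.17, groups overlapping). Under CPM scaling Pik3c3 fell in LPS + NCT503 relative to control (-0.86, adjusted p = 0.0166), where the median of all genes was -0.37. Pik3r4, the regulatory partner of Pik3c3, fell in LPS (-0.62 ± 0.18, adjusted p = 0.0188) and in LPS + NCT503 (-0.58 ± 0.16, adjusted p = 0.0165) relative to control. Both falls of Pik3r4 were lost when 1 library was left out. The one in LPS was lost without LPS replicate 2 or control replicate 1 or 3 (adjusted p 0.0568 to 0.063), and the one in LPS + NCT503 without control replicate 2 or 3 (adjusted p 0.0518 to 0.052). Ambra1, a regulator of Beclin 1, rose in LPS relative to control (0.41 ± 0.15, adjusted p = 0.0392). That call was lost under TMM scaling and without LPS replicate 2 or 3 or control replicate 1 or 2 (adjusted p 0.0984 to 0.14), and its sign was negative under CPM and quantile scaling. Uvrag, which joins the complex in place of Atg14 on endosomes, passed in none of the comparisons, with -0.09 ± 0.13, 0.43 ± 0.17 and 0.34 ± 0.15 in LPS relative to control, LPS + NCT503 relative to LPS and LPS + NCT503 relative to control. It rose in LPS + NCT503 relative to LPS with edgeR (adjusted p = 0.0369), and exons of an antisense gene, Gm45187, cover 17.6% of its exon bases. Stretches of its transcript match other genes at 95% identity or more, so its reads may also have been split.

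Among the genes of membrane growth, the lipid transfer genes Atg2a and Atg2b were higher and the lipid scramblase gene Atg9a was lower in LPS + NCT503 macrophages than in LPS macrophages. Of 6 genes, 2 rose and 1 fell in LPS relative to control, and likewise 2 rose and 1 fell in LPS + NCT503 relative to LPS and relative to control. Atg2a, which encodes a bridge that carries lipid into the growing membrane, had 2690, 3147 and 3255 normalized reads in LPS + NCT503, 961, 1395 and 1069 in LPS and 1232, 1540 and 1677 in control libraries. The 3 LPS + NCT503 libraries stood above all 6 others. Atg2a rose in LPS + NCT503 relative to LPS (1.42 ± 0.19, adjusted p = 0.00018) and relative to control (1.04 ± 0.16, adjusted p = 0.000592), and the difference of -0.38 ± 0.18 between LPS and control, whose libraries overlap, had an adjusted p of 0.118 and passed under TMM, CPM and quantile scaling. Its paralogue Atg2b had 397.5, 353 and 426 normalized reads in LPS + NCT503, 170.5, 109 and 131 in LPS and 417, 354 and 366 in control libraries. Here it was the LPS libraries that stood apart, below all others. Like Rb1cc1, Atg2b is among the longest 10% of genes, and the part of transcript length was not tested. Atg2b fell in LPS relative to control (-1.48 ± 0.20, adjusted p = 0.00011) and rose in LPS + NCT503 relative to LPS (1.53 ± 0.22, adjusted p = 0.00029), and the difference between LPS + NCT503 and control was 0.05 ± 0.16 (adjusted p = 0.837).

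Atg9a, the transmembrane protein of the vesicles that seed the autophagosome, had 341.5, 367 and 328 normalized reads in LPS + NCT503, 1022, 1347 and 1216 in LPS and 398, 536 and 547 in control libraries. The 3 groups did not overlap, and LPS was the highest. Atg9a rose in LPS relative to control (1.28 ± 0.18, adjusted p = 0.000125) and fell in LPS + NCT503 relative to LPS (-1.78 ± 0.18, adjusted p = 2.51e-05). Its fall in LPS + NCT503 relative to control (-0.50 ± 0.18, adjusted p = 0.0434) was lost without LPS + NCT503 replicate 1 or 3 or control replicate 2 or 3 (adjusted p 0.105 to 0.193). Exons of Gm29253, on the same strand, cover 31.8% of its exon bases, so reads of the 2 genes may have been shared. Vmp1, an endoplasmic reticulum scramblase needed for early autophagosome formation, had 3500, 3017 and 2887 normalized reads in LPS + NCT503, 4019, 3941 and 3719 in LPS and 1681, 1807 and 2005 in control libraries. Control libraries were the lowest. Vmp1 rose in LPS (1.10 ± 0.14, adjusted p = 7.1e-05) and in LPS + NCT503 (0.77 ± 0.15, adjusted p = 0.00201) relative to control, and the difference between LPS + NCT503 and LPS was -0.32 ± 0.16 (adjusted p = 0.156). The second of these rises was lost under CPM scaling (0.32, adjusted p = 0.0541). The gene contains the microRNA gene Mir21a, with which it shares 92 exon bases on the same strand. The phosphoinositide readers Wipi1 and Wipi2 passed in none of the comparisons, with log2 fold changes between -0.10 and 0.13, though both fell in LPS relative to control under CPM scaling.

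**Figure D3:**
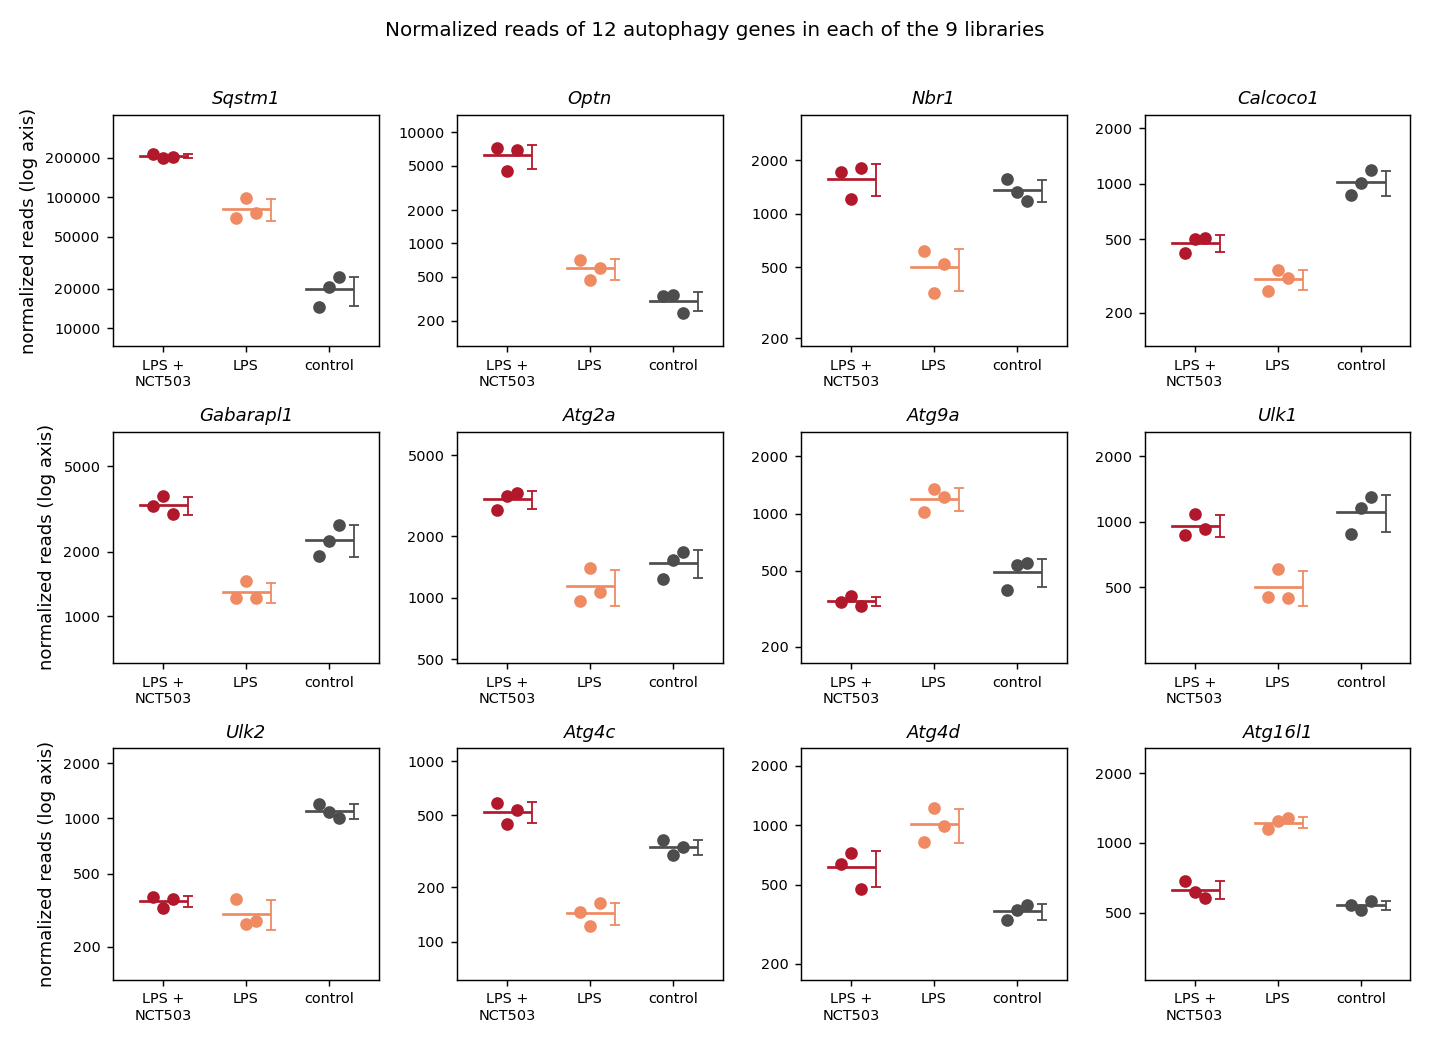
Normalized reads (vertical log axis) of 12 autophagy genes in each library of LPS + NCT503, LPS and control macrophages, where each point is 1 library, horizontal lines are group means and bars are ± SD (n = 3 libraries). The LPS libraries lie below both other groups for Ulk1, Nbr1, Atg4c and Gabarapl1 and above both for Atg9a, Atg4d and Atg16l1, while Sqstm1 and Optn are highest in LPS + NCT503.

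The conjugation systems showed differences in both directions, also among near relatives. Of 10 genes, 3 rose and 3 fell in LPS relative to control, 3 rose and 2 fell in LPS + NCT503 relative to LPS, and 4 rose and 2 fell in LPS + NCT503 relative to control. The 4 Atg4 genes encode cysteine proteases that prime ATG8 proteins and also release them from lipid. Atg4c had 589, 448 and 537 normalized reads in LPS + NCT503, 145, 123 and 163 in LPS and 363.5, 302 and 336.5 in control libraries. The order LPS + NCT503, control, LPS held without overlap. It fell in LPS relative to control (-1.21 ± 0.18, adjusted p = 0.000242), rose in LPS + NCT503 relative to LPS (1.86 ± 0.20, adjusted p = 4.49e-05) and rose in LPS + NCT503 relative to control (0.65 ± 0.17, adjusted p = 0.0118). The last call was lost without LPS + NCT503 replicate 1 or control replicate 2 (adjusted p 0.0552 and 0.0772) and under CPM scaling. Atg4d had 636, 726 and 475 normalized reads in LPS + NCT503, 820.2, 1221 and 991 in LPS and 331, 372 and 397 in control libraries. For this protease LPS was highest and control lowest, again without overlap. Atg4d rose in LPS relative to control (1.45 ± 0.18, adjusted p = 4.74e-05), fell in LPS + NCT503 relative to LPS (-0.72 ± 0.22, adjusted p = 0.0242) and rose in LPS + NCT503 relative to control (0.72 ± 0.19, adjusted p = 0.0116). The fall was lost without LPS + NCT503 replicate 1 or 3 or LPS replicate 2 or 3 (adjusted p 0.0549 to 0.125), and it and the last rise were lost under CPM scaling. Exons of Kri1 on the opposite strand cover 19.3% of those of Atg4d. Atg4a and Atg4b passed in none of the comparisons, with log2 fold changes between -0.18 and 0.35, although Atg4b fell in LPS relative to control under CPM scaling. A stretch of 2115 bases of the Atg4a transcript matches another gene, Atg4a-ps, at 99.3% identity, so reads of Atg4a may have been split between them.

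Atg7, the E1-like enzyme that activates both ATG8 and ATG12 proteins, had 973, 1254 and 1014 normalized reads in LPS + NCT503, 725, 780 and 751 in LPS and 1410, 1562 and 1836 in control libraries. The groups did not overlap, with control highest and LPS lowest. Atg7 fell in LPS relative to control (-1.08 ± 0.15, adjusted p = 0.000133). The level rose in LPS + NCT503 relative to LPS (0.52 ± 0.17, adjusted p = 0.0385) and fell in LPS + NCT503 relative to control (-0.57 ± 0.17, adjusted p = 0.0195). The rise was lost without any 1 of the 6 libraries compared (adjusted p 0.0627 to 0.117). The last fall was lost without LPS + NCT503 replicate 1 or 3 or control replicate 2 or 3 (adjusted p 0.0705 to 0.0873). Atg10, the E2-like enzyme of ATG12, was among the least abundant, with 69.3, 55.1 and 52.0 normalized reads in LPS + NCT503, 86.4, 88.6 and 69.5 in LPS and 117.5, 129.5 and 126 in control libraries. Control libraries lay above all others. It fell in LPS + NCT503 relative to control (-1.08 ± 0.22, adjusted p = 0.0027) and in LPS relative to control (-0.60 ± 0.21, adjusted p = 0.0357). The fall in LPS was lost without LPS replicate 3 or control replicate 2 or 3 (adjusted p 0.0898 to 0.143) and under quantile scaling.

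Atg16l1, which places the ATG12-ATG5 conjugate on the membrane and so sets where ATG8 lipidation occurs, had 687, 611 and 580.1 normalized reads in LPS + NCT503, 1150, 1240 and 1279 in LPS and 536, 512.5 and 562.5 in control libraries. LPS libraries stood above all others. Atg16l1 rose in LPS relative to control (1.19 ± 0.14, adjusted p = 3.59e-05) and fell in LPS + NCT503 relative to LPS (-0.97 ± 0.17, adjusted p = 0.00103), and LPS + NCT503 and control differed by 0.22 ± 0.15 (adjusted p = 0.28). Atg12 and Atg5, the partners of ATG16L1, form the conjugate itself. Atg12 rose in LPS + NCT503 relative to LPS (0.80 ± 0.17, adjusted p = 0.00394) and relative to control (0.51 ± 0.14, adjusted p = 0.0168), the second rise being lost without LPS + NCT503 replicate 3 or control replicate 2 (adjusted p 0.0631 and 0.0779) and under CPM and quantile scaling. Atg5 passed in none, with log2 fold changes of -0.39 ± 0.18 in LPS relative to control, 0.11 ± 0.20 in LPS + NCT503 relative to LPS and -0.28 ± 0.15 in LPS + NCT503 relative to control, though it fell in LPS relative to control under TMM, CPM and quantile scaling. Atg3, the E2-like enzyme that joins ATG8 proteins to phosphatidylethanolamine and whose window holds 2 E-box cores, rose in LPS (0.66 ± 0.14, adjusted p = 0.00246) and in LPS + NCT503 (0.80 ± 0.14, adjusted p = 0.00124) relative to control. Its rise in LPS was lost under quantile scaling and negative under CPM scaling, and that in LPS + NCT503 was lost under CPM scaling.

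Among the 5 ATG8 genes, Gabarapl1 fell in LPS relative to control and rose in LPS + NCT503 relative to LPS, while Map1lc3b, the one most often used as a marker of autophagosomes, did not pass in any comparison. In LPS relative to control 2 rose and 1 fell, in LPS + NCT503 relative to LPS 1 rose and 1 fell, and in LPS + NCT503 relative to control 1 rose and 4 did not pass. Per kilobase of gene length, as deposited, the levels in LPS + NCT503 macrophages ran in the order Gabarap (5620 ± 717 normalized reads per kilobase, SD, n = 3), Gabarapl1 (1635 ± 157), Map1lc3a (456 ± 98.3), Map1lc3b (237 ± 20) and Gabarapl2 (193 ± 10.7). In LPS macrophages they were Gabarap (6786 ± 1341), Gabarapl1 (642 ± 68.6), Map1lc3a (474 ± 128), Gabarapl2 (284 ± 24.2) and Map1lc3b (256 ± 14.3), and in control macrophages Gabarap (4368 ± 881), Gabarapl1 (1128 ± 191), Map1lc3a (469 ± 80.6), Map1lc3b (298 ± 34.7) and Gabarapl2 (180.3 ± 30.4). Neighbours in these orders overlapped in LPS only, where Gabarapl1 overlapped Map1lc3a and Gabarapl2 overlapped Map1lc3b. The order of Map1lc3a and Map1lc3b rests on their deposited lengths, 1181 and 7517 bases. Before division by length Map1lc3b had more reads. Its means were 1781, 1921 and 2240 in LPS + NCT503, LPS and control, against 538.5, 560.3 and 553.9 for Map1lc3a. Which of them has more transcripts cannot be told from these orders. Gabarapl1, an ATG8 protein of the GABARAP branch, had 3255, 3624 and 2995 normalized reads in LPS + NCT503, 1216, 1451 and 1208 in LPS and 1900, 2245 and 2667 in control libraries. The groups did not overlap. It fell in LPS relative to control (-0.80 ± 0.16, adjusted p = 0.00218) and rose in LPS + NCT503 relative to LPS (1.35 ± 0.17, adjusted p = 0.000113). It also rose in LPS + NCT503 relative to control (0.54 ± 0.17, adjusted p = 0.0234), a call lost without LPS + NCT503 replicate 1 or control replicate 1 or 2 (adjusted p 0.062 to 0.0873) and under CPM and quantile scaling. Exons of 1700101I11Rik on the opposite strand cover 28.3% of those of Gabarapl1.

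Map1lc3b, which encodes LC3B, had 1749, 1945 and 1648 normalized reads in LPS + NCT503, 1797, 1988 and 1977 in LPS and 1994, 2212 and 2514 in control libraries. All 3 control libraries were highest, by a narrow margin. The log2 fold changes were -0.21 ± 0.15 in LPS relative to control (adjusted p = 0.273), -0.11 ± 0.16 in LPS + NCT503 relative to LPS (adjusted p = 0.63) and -0.33 ± 0.15 in LPS + NCT503 relative to control (adjusted p = 0.111). Under CPM and quantile scaling it fell in LPS relative to control (-0.91 and -0.78) and in LPS + NCT503 relative to control (-0.78 and -0.72), and with edgeR it fell in LPS + NCT503 relative to control (-0.36, adjusted p = 0.044). Its transcript has 4 processed pseudogenes with identity of at least 95% over at least 200 bases, so reads may have been split among them. Gabarapl2 rose in LPS relative to control (0.67 ± 0.17, adjusted p = 0.00777), with the sign negative under CPM scaling, and fell in LPS + NCT503 relative to LPS (-0.55 ± 0.17, adjusted p = 0.0283). That fall was lost without LPS + NCT503 replicate 1 or 3 or LPS replicate 2 or 3 (adjusted p 0.0643 to 0.116) and under CPM scaling, and the gene has 3 such pseudogenes. Gabarap, the founding member of its branch, ranked 202 of 21434 genes per kilobase in LPS + NCT503, 232 in LPS and 164 in control macrophages. It rose in LPS relative to control (0.64 ± 0.20, adjusted p = 0.023, groups overlapping). This call was lost without LPS replicate 2 or 3 or control replicate 1 or 2 (adjusted p 0.0718 to 0.108), negative under CPM scaling, and a fall under quantile scaling (-0.34, adjusted p = 0.04). Map1lc3a passed in none, with log2 fold changes between -0.05 and 0.00, though it fell in LPS relative to control under CPM scaling.

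**Figure D4:**
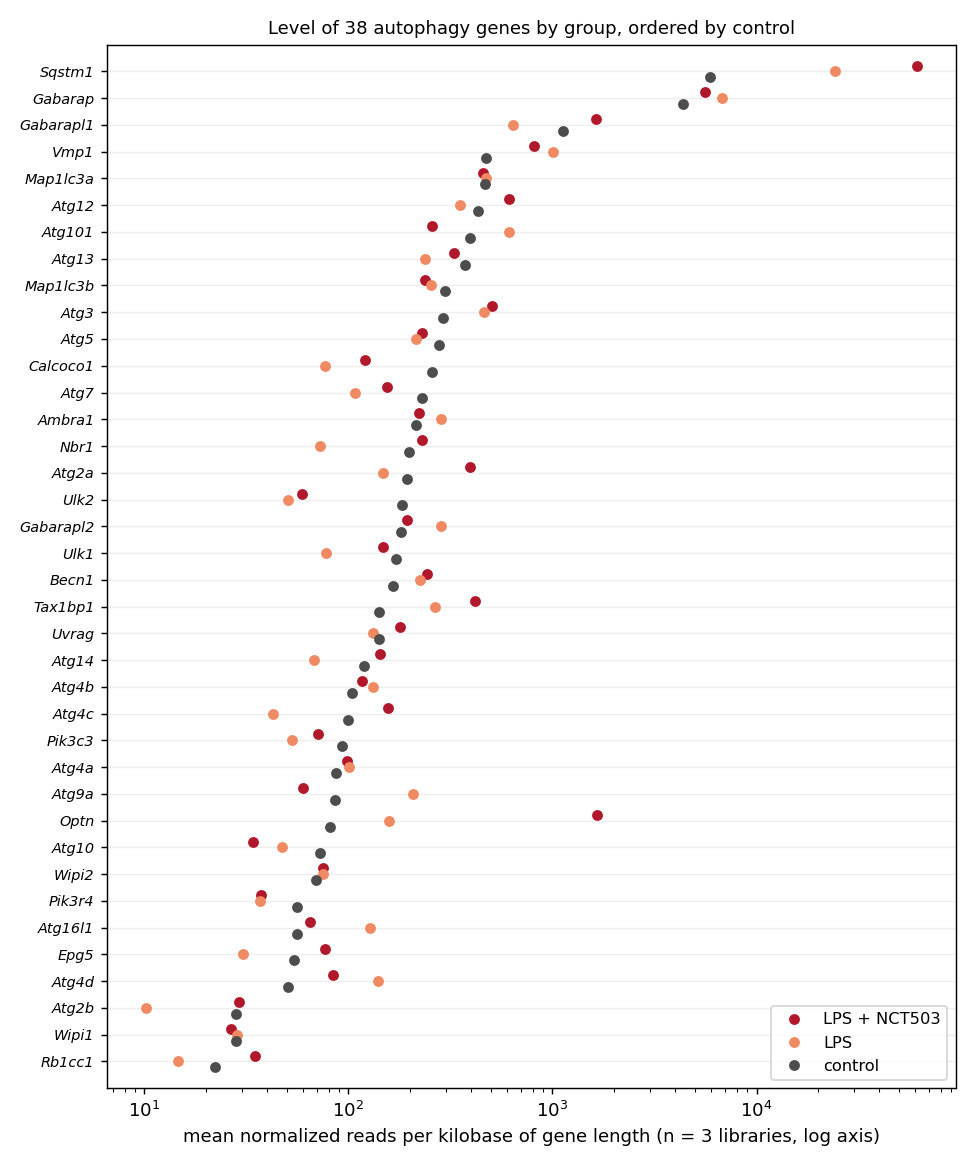
Mean normalized reads per kilobase of gene length (horizontal log axis, n = 3 libraries) of each of the 38 genes in LPS + NCT503 (red), LPS (orange) and control (grey) macrophages, ordered by the control level. Sqstm1 is the most abundant in every group, and Optn lies at 1656 in LPS + NCT503, 158 in LPS and 80.9 in control.

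All 5 cargo receptors passed in LPS relative to control, 3 higher and 2 lower, and in LPS + NCT503 relative to LPS 4 rose and 1 did not pass. In LPS + NCT503 relative to control 3 rose and 1 fell. Of all genes tested, 20.5% rose and 21.4% fell in the first of these comparisons. It was 16.9% and 15.7% in the second, and 20.7% and 19.7% in the third. Whether these 5 genes as a group differed from other genes was not tested. Sqstm1 binds ubiquitinated cargo and gathers it into condensates. It had 212602, 200320 and 202367 normalized reads in LPS + NCT503, 69576, 98039 and 75308 in LPS and 14513, 20518 and 24324 in control libraries. The groups were far apart, in the order LPS + NCT503, LPS, control. Its adjusted p was 1.41e-05 in LPS relative to control, 0.000158 in LPS + NCT503 relative to LPS and 4e-07 in LPS + NCT503 relative to control. Across all scalings, tools and left-out libraries the log2 fold change was 1.10 to 2.22, 1.25 to 1.60 and 2.90 to 3.57 in these comparisons. Sqstm1 took 0.923%, 0.902% and 0.921% of all assigned reads in the LPS + NCT503 libraries, 0.287%, 0.342% and 0.279% in the LPS libraries and 0.0971%, 0.124% and 0.137% in the control libraries. By mean level per kilobase it ranked 10 of 21434 genes in LPS + NCT503, 50 in LPS and 114 in control macrophages. The other 37 genes together took 0.243%, 0.240% and 0.249% of reads in LPS + NCT503, 0.173%, 0.160% and 0.165% in LPS and 0.244%, 0.239% and 0.242% in control libraries. Outside Sqstm1, the summed share was lowest in the LPS libraries, and the other groups overlapped. A share of reads is scaled to total reads, as in CPM scaling. Under CPM the median log2 fold change of all genes was -0.69 in LPS relative to control. It was 0.31 in LPS + NCT503 relative to LPS and -0.37 in LPS + NCT503 relative to control. Whether the summed share of the 37 genes differed from that of other genes was not tested. Exons of Mrnip on the opposite strand cover 17.3% of the exon bases of Sqstm1.

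Optn encodes a receptor that binds ubiquitin and LC3, is phosphorylated by TBK1, and acts in the removal of bacteria and damaged mitochondria. Its level was 7214, 4504 and 6930 normalized reads in LPS + NCT503, 714, 468 and 602 in LPS and 334, 340.2 and 236 in control libraries. No group overlapped another, and the LPS + NCT503 libraries stood far above all others. Optn rose in LPS relative to control (0.97 ± 0.21, adjusted p = 0.00264), in LPS + NCT503 relative to LPS (3.38 ± 0.23, adjusted p = 1.48e-06) and in LPS + NCT503 relative to control (4.34 ± 0.22, adjusted p = 2.07e-07). The rise with LPS alone was lost under CPM scaling (0.27, adjusted p = 0.415). The rise in LPS + NCT503 relative to LPS was 3.22 to 3.62 and that relative to control 3.89 to 4.56 under all alternatives. By mean level per kilobase Optn ranked 726 of 21434 genes in LPS + NCT503, 4707 in LPS and 6356 in control macrophages.

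Nbr1, a receptor related to Sqstm1 in domain structure and a partner of it in ubiquitin condensates, had 1723, 1208 and 1798 normalized reads in LPS + NCT503, 621, 360 and 522 in LPS and 1571, 1320 and 1184 in control libraries. LPS libraries lay far below the others, and LPS + NCT503 and control overlapped. Nbr1 fell in LPS relative to control (-1.46 ± 0.21, adjusted p = 0.000152) and rose in LPS + NCT503 relative to LPS (1.67 ± 0.23, adjusted p = 0.000271), and LPS + NCT503 and control differed by 0.20 ± 0.19 (adjusted p = 0.432). Calcoco1, a receptor for endoplasmic reticulum and Golgi membranes, had 420, 506 and 508 normalized reads in LPS + NCT503, 264, 339.6 and 308 in LPS and 867, 1012 and 1185 in control libraries. Control was highest and LPS lowest, without overlap. It fell in LPS (-1.74 ± 0.17, adjusted p = 9.53e-06) and in LPS + NCT503 (-1.09 ± 0.17, adjusted p = 0.000559) relative to control and rose in LPS + NCT503 relative to LPS (0.65 ± 0.19, adjusted p = 0.0212). The rise was lost without LPS + NCT503 replicate 3 or LPS replicate 1 or 3 (adjusted p 0.0551 to 0.097). Tax1bp1, which binds ubiquitin and is recruited to cargo by NBR1, had 4860, 2967 and 4751 normalized reads in LPS + NCT503, 3693, 1849 and 2469 in LPS and 1595, 1553 and 1076 in control libraries. Control libraries lay below all others, and LPS + NCT503 and LPS overlapped. It rose in LPS + NCT503 (1.56 ± 0.23, adjusted p = 0.000329) and in LPS (0.89 ± 0.24, adjusted p = 0.0116) relative to control, the rise in LPS being lost without control replicate 3 (0.71, adjusted p = 0.0646) and under CPM and quantile scaling. The difference of 0.68 ± 0.27 between LPS + NCT503 and LPS did not pass (adjusted p = 0.0744), and passed under CPM (0.92, adjusted p = 0.0306) and quantile scaling (0.85, adjusted p = 0.0358). Tax1bp1, like Rb1cc1, Atg2b, Epg5, Pik3r4 and Wipi2, is among these long genes. The lowest library of Tax1bp1 in LPS + NCT503 and in LPS was replicate 2, as for the median of the long genes. The same held for Rb1cc1 (309 and 150 normalized reads), Atg2b (353 and 109), Epg5 (583 and 243) and Pik3r4 (314 and 271). Wipi2 was highest in replicate 2 of both groups. The part of transcript length in the differences of these genes was not tested.

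The receptors differed in order as well as in level. Per kilobase the order in LPS + NCT503 macrophages was Sqstm1 (61110 ± 1961 normalized reads per kilobase, SD, n = 3), Optn (1656 ± 397), Tax1bp1 (419.7 ± 106), Nbr1 (229 ± 46.7) and Calcoco1 (121 ± 12.6). In LPS macrophages it was Sqstm1 (24130 ± 4486), Tax1bp1 (267 ± 93.9), Optn (158 ± 32.9), Calcoco1 (76.7 ± 9.61) and Nbr1 (72.9 ± 19.2), and in control macrophages Sqstm1 (5895 ± 1474), Calcoco1 (258 ± 40.2), Nbr1 (198 ± 28.5), Tax1bp1 (141 ± 28.9) and Optn (80.9 ± 15.5). Neighbours overlapped for Tax1bp1 and Optn in LPS, for Calcoco1 and Nbr1 in LPS, and for Calcoco1 and Nbr1 in control. These orders also rest on the deposited lengths, 9991 bases for Tax1bp1, 6871 for Nbr1 and 3963 for Calcoco1. In control, mean reads before division by length ran the other way, at 1408 for Tax1bp1, 1358 for Nbr1 and 1021 for Calcoco1. Epg5, the tether that joins autophagosomes to lysosomes, had 787, 583 and 849.6 normalized reads in LPS + NCT503, 336, 243 and 303 in LPS and 594, 509 and 459.9 in control libraries. LPS libraries were below all others. Epg5 fell in LPS relative to control (-0.82 ± 0.18, adjusted p = 0.00311) and rose in LPS + NCT503 relative to LPS (1.32 ± 0.21, adjusted p = 0.000609). The difference of 0.49 ± 0.19 between LPS + NCT503 and control had an adjusted p of 0.0572, and passed with DESeq2 (0.50, adjusted p = 0.0484).

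Ratios within a library do not depend on the scaling between libraries. Pairs of related genes were compared in this way, and since the pairs were chosen after their values were seen, the ratios are given without a test, as mean log2 ratios ± SD over 3 libraries. Ulk1 over Ulk2 was 1.43 ± 0.26 in LPS + NCT503, 0.73 ± 0.45 in LPS and 0.01 ± 0.42 in control libraries. Gabarapl1 over Gabarapl2 was 2.87 ± 0.12, 0.96 ± 0.10 and 2.44 ± 0.01 in the same groups. LPS libraries thus had the lowest ratio within the ATG8 pair but an intermediate mean ratio between the kinases. Atg4c over Atg4d was -0.21 ± 0.44 in LPS + NCT503, -2.80 ± 0.44 in LPS and -0.14 ± 0.23 in control libraries. Atg2a over Atg9a was 3.12 ± 0.17, -0.07 ± 0.12 and 1.59 ± 0.06. For the proteases, LPS alone stood apart and LPS + NCT503 overlapped control, while for the lipid transfer and scramblase genes all 3 groups were separate. Sqstm1 over Nbr1 was 7.04 ± 0.29 in LPS + NCT503, 7.35 ± 0.66 in LPS and 3.84 ± 0.58 in control libraries, and Optn over Calcoco1 was 3.67 ± 0.48, 0.95 ± 0.49 and -1.75 ± 0.50.

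The kinases and transcription factors that act on the pathway also differed, among them the gene of its best known transcriptional regulator. Tfeb had 2842, 3366 and 2673 normalized reads in LPS + NCT503, 1145, 1770 and 1222 in LPS and 3358, 4445 and 4612 in control libraries. LPS libraries lay below all others. Tfeb fell in LPS relative to control (-1.59 ± 0.20, adjusted p = 5.32e-05), rose in LPS + NCT503 relative to LPS (1.12 ± 0.20, adjusted p = 0.00142) and fell in LPS + NCT503 relative to control (-0.48 ± 0.17, adjusted p = 0.0462). The last call was lost without LPS + NCT503 replicate 1 or 3 or control replicate 2 or 3 (adjusted p 0.124 to 0.186). Its relative Tfe3, which binds the same E-box, had 2071, 2503 and 2103 normalized reads in LPS + NCT503, 4998, 6849 and 5523 in LPS and 2276, 2907 and 3156 in control libraries, so that here LPS was the highest group. Tfe3 rose in LPS relative to control (1.06 ± 0.18, adjusted p = 0.000499), a call lost under quantile scaling (0.33, adjusted p = 0.0586), and fell in LPS + NCT503 relative to LPS (-1.37 ± 0.18, adjusted p = 0.000166). Mitf, of the same family, rose in LPS (0.72 ± 0.16, adjusted p = 0.00398) and in LPS + NCT503 (1.17 ± 0.24, adjusted p = 0.00308) relative to control, the first lost under CPM and quantile scaling. Tbk1, the kinase of optineurin, rose likewise in LPS (0.99 ± 0.18, adjusted p = 0.0011) and in LPS + NCT503 (1.40 ± 0.22, adjusted p = 0.00055) relative to control, the first lost under CPM scaling, and differed by 0.41 ± 0.24 between LPS + NCT503 and LPS (adjusted p = 0.224). Mtor, the kinase that restrains the ULK1 complex, fell in LPS + NCT503 relative to LPS (-0.50 ± 0.16, adjusted p = 0.032), a call lost without LPS + NCT503 replicate 1 or 3 or LPS replicate 2 or 3 (adjusted p 0.062 to 0.128) and under CPM and quantile scaling. Of all 27 genes on this list, 9 rose and 9 fell in LPS relative to control, 12 rose and 5 fell in LPS + NCT503 relative to LPS, and 8 rose and 9 fell in LPS + NCT503 relative to control. The shares of all genes tested that rose and fell were 20.5% and 21.4%, 16.9% and 15.7%, and 20.7% and 19.7% in that order. In LPS relative to control the smallest p were those of Prkag2 (-4.46 ± 0.25, adjusted p = 8.92e-08), Trp53inp1, Deptor (-4.68 ± 0.40, adjusted p = 3e-06) and Tfec (1.55 ± 0.14, adjusted p = 4.81e-06). Deptor had a mean of only 4.47 normalized reads in LPS. Prkag2 also fell in LPS + NCT503 relative to control (-2.37 ± 0.17, adjusted p = 2.23e-06). Atf4, the effector of the amino acid stress response, was among the smallest p in both comparisons of LPS + NCT503. It rose relative to LPS (1.37 ± 0.17, adjusted p = 9.16e-05) and to control (2.70 ± 0.16, adjusted p = 5.22e-07), and in LPS relative to control (1.33 ± 0.16, adjusted p = 3.97e-05). Nfe2l2, which encodes NRF2, also rose in LPS relative to control (1.09 ± 0.16, adjusted p = 0.00022), a call lost under CPM and quantile scaling. It rose in LPS + NCT503 relative to control (1.90 ± 0.19, adjusted p = 2.96e-05) and relative to LPS (0.82 ± 0.21, adjusted p = 0.0121), where the call was lost without LPS + NCT503 replicate 1 or 3 or LPS replicate 2 (adjusted p 0.0523 to 0.0617). Tsc1, an inhibitor of mTORC1, rose in LPS + NCT503 relative to LPS (1.69 ± 0.21, adjusted p = 0.000102). Trp53inp1, whose protein binds ATG8 proteins, fell in LPS relative to control (-3.11 ± 0.21, adjusted p = 3.82e-07) and rose in LPS + NCT503 relative to LPS (2.39 ± 0.23, adjusted p = 1.91e-05).

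A further 3 lists describe the rest of the pathway. Of 14 other initiation, nucleation and lipidation genes, 4 rose and 4 fell in LPS relative to control, 4 rose and 2 fell in LPS + NCT503 relative to LPS, and 5 rose and 2 fell in LPS + NCT503 relative to control. Snx18 had the smallest adjusted p of this list in LPS relative to control, where it rose (2.37 ± 0.14, adjusted p = 1.07e-07). It rose in LPS + NCT503 relative to control (1.76 ± 0.13, adjusted p = 3.46e-06) and fell relative to LPS (-0.61 ± 0.15, adjusted p = 0.0102). That fall was lost without LPS replicate 3 (adjusted p = 0.0534) and under CPM and quantile scaling. Rubcn, whose product Rubicon restrains the PI3-kinase complex, fell in LPS (-1.10 ± 0.14, adjusted p = 8.15e-05) and in LPS + NCT503 (-1.31 ± 0.16, adjusted p = 0.000109) relative to control. Tecpr1, which acts at autophagosome and lysosome membranes, fell in LPS relative to control (-1.36 ± 0.17, adjusted p = 6.79e-05) and rose in LPS + NCT503 relative to LPS (1.65 ± 0.20, adjusted p = 7.92e-05). Tfg rose in LPS relative to control (1.04 ± 0.15, adjusted p = 0.000188), a call lost under CPM scaling (0.34, adjusted p = 0.116). It fell in LPS + NCT503 relative to LPS (-0.80 ± 0.18, adjusted p = 0.00621). Of 18 other selective autophagy receptors and adaptors, 17 were tested against control and 16 between LPS + NCT503 and LPS. Of these, 4 rose and 6 fell in LPS relative to control, 8 rose and 2 fell in LPS + NCT503 relative to LPS, and 4 rose and 2 fell in LPS + NCT503 relative to control. Tollip, an adaptor for ubiquitinated aggregates, rose in LPS + NCT503 relative to LPS (1.10 ± 0.16, adjusted p = 0.000268) and relative to control (1.53 ± 0.14, adjusted p = 1.59e-05). Ncoa4, the receptor for ferritin, fell in LPS (-2.03 ± 0.14, adjusted p = 4.89e-07) and in LPS + NCT503 (-1.40 ± 0.14, adjusted p = 2.13e-05) relative to control, while Bnip3, a mitochondrial receptor, rose in both (1.79 ± 0.19, adjusted p = 1.54e-05, and 2.18 ± 0.16, adjusted p = 2.81e-06). Of 16 genes of autophagosome to lysosome fusion, 4 rose and 7 fell in LPS relative to control, 4 rose and 1 fell in LPS + NCT503 relative to LPS, and 2 rose and 4 fell in LPS + NCT503 relative to control. Of 6 subunits of the HOPS tethering complex on that list, 0 rose and 3 fell in LPS relative to control. In LPS + NCT503 relative to control 1 rose and 0 fell. The subunits were grouped after values of this list were seen, so their counts do not show how they compare with other genes. Relative to LPS, 4 of the 6 rose in LPS + NCT503, where 16.9% of all genes tested rose. These were Vps11, Vps18 and Vps39 (0.88 ± 0.16, 0.77 ± 0.18 and 0.88 ± 0.18, adjusted p = 0.00128, 0.00604 and 0.00299) and Vps41 (0.86 ± 0.25, adjusted p = 0.0215, groups overlapping). The call of Vps41 was lost without LPS + NCT503 replicate 1 or 3 or LPS replicate 2 or 3 (adjusted p 0.0905 to 0.0949). The subunits Vps16 and Vps33a had 0.12 ± 0.16 (adjusted p = 0.6) and 0.39 ± 0.16 (adjusted p = 0.0902) in that comparison. The SNARE gene Ykt6 fell in LPS + NCT503 relative to LPS (-0.94 ± 0.17, adjusted p = 0.00123). Over all 4 lists, 21 of 74 genes rose and 26 fell in LPS relative to control, 28 of 73 rose and 10 fell in LPS + NCT503 relative to LPS, and 19 of 74 rose and 17 fell in LPS + NCT503 relative to control. Beside these counts and those of each list, 20.5% of all genes tested rose and 21.4% fell in LPS relative to control. The shares were 16.9% and 15.7% in LPS + NCT503 relative to LPS, and 20.7% and 19.7% in LPS + NCT503 relative to control. Under CPM scaling the splits of the 4 lists were 6 higher and 50 lower, 35 higher and 6 lower, and 11 higher and 35 lower, beside the shares of all genes under that scaling given above (10.3% higher and 42% lower, 21.9% and 10.6%, and 12.2% and 32.7%).

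In the authors' deposited table for LPS relative to control, 13 of the 38 genes were higher and 14 lower at an adjusted p under 0.05. In the authors' deposited table for LPS + NCT503 relative to LPS, 15 were higher and 5 lower. Of the 38 genes, 30 passed in at least 1 comparison, 9 in all 3 and 8 in none. The matching shares of all genes were not computed, neither for these counts nor for those of the authors. These counts therefore do not show how the 38 compare with other genes. The 8 were Uvrag, Wipi1, Wipi2, Atg4a, Atg4b, Atg5, Map1lc3a and Map1lc3b. A p above the threshold does not show that these genes did not differ.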

How the data were processed

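Gene expression was measured by RNA-seq in 9 libraries, 3 each of LPS + NCT503, LPS and control bone-marrow-derived macrophages. TopHat2 and the mm10 build are named per the submitters' processing notes. The sources used here do not state versions, counter, annotation, strand setting or differential test. Per the file headers and the values, the authors deposited 2 tables (23001 and 22620 genes) of signal per library, which is read number over a size factor, and their own comparisons as log2 fold changes and as p-values with an adjusted form. Whole reads were recovered from the signal in 100% of values of all 12 library columns (tolerance 0.001), and the LPS libraries gave the same reads in both tables. Size factors were therefore recomputed over the 9 libraries for printed levels and for LPS + NCT503 against control.

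Genes with a group mean of at least 1 normalized read entered a limma-trend fit (R 4.3.3, limma 3.58.1) with a mean trend and robust moderation, on log2(normalized reads + 1). Each comparison used the 3 libraries of both its groups, with Benjamini-Hochberg adjustment over all genes tested. On the recovered reads, edgeR 4.0.16 called 3634 genes higher and 4135 lower in LPS against control, 3212 and 2886 in LPS + NCT503 against LPS, and 3566 and 3982 in LPS + NCT503 against control. The other alternatives were DESeq2 1.42.0, a pseudocount of 0.1, no filter, TMM, CPM and quantile scaling, all 9 libraries in 1 fit, a replicate block, a log2 fold change of at least 1 and each library left out.

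Whether the 3 libraries of a group come from separate cultures or mice is not stated in the labels. The p-values then measure only the spread between these samples, which may be technical. The members and lists were chosen with earlier results of these data known. Values per library are given for every member called with a log2 fold change of at least 1 in size, and for Ulk1, Becn1, Atg7, Map1lc3b, Gabarapl1, Sqstm1 and Optn. Of the other pathway lists, up to 4 called genes per list and comparison by smallest p may be named, beside Tfeb, Tfe3, Mitf, Tbk1 and Mtor. Vps41, Vps16 and Vps33a, and further comparisons of Atf4 and Nfe2l2, were added after their values were seen. Overlapping exons and near-identical copies were sought in GENCODE M21, for the 38 members only.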

Additional observations from a re-analysis of the deposited data

How the results depend on the processing

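Over the 38 genes, 3 comparisons and all alternatives, 1631 of 1824 values were counted as unchanged, 123 lost a call, 58 gained one and 12 reversed. Unchanged values kept their side of the threshold and, where called, their direction. In 59 of the 1631 the sign crossed zero with no call under either setting. CPM scaling gave 5 higher and 25 lower genes in LPS against control, 3 lower in LPS + NCT503 against LPS, and 4 higher and 13 lower in LPS + NCT503 against control. Quantile normalization gave 8 higher in LPS against control. A log2 fold change of at least 1 left 5 higher and 7 lower, 10 higher and 2 lower, and 4 higher and 3 lower in the 3 comparisons in that order. The shares of all genes at that threshold were 13.6% and 15%, 12.6% and 9.51%, and 14.6% and 12.9%. Those under CPM and quantile scaling are given in the Results. Leaving out 1 library gave 9 to 13 higher and 12 to 17 lower in LPS against control, 11 to 16 higher and 3 to 5 lower in LPS + NCT503 against LPS, and 7 to 15 higher and 3 to 8 lower in LPS + NCT503 against control. For all genes it gave 3321 to 4120 higher and 3111 to 4433 lower in the first comparison. In the second it gave 2213 to 3748 higher and 2121 to 3556 lower, and in the third 3089 to 4612 higher and 2719 to 4529 lower.

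Among genes called under either setting, the sign in LPS against control turned negative under CPM scaling for Atg101 (-0.060), Becn1 (-0.26), Ambra1 (-0.29), Wipi1 (-0.68), Wipi2 (-0.57), Atg3 (-0.043), Atg4b (-0.35), Gabarap (-0.063), Gabarapl2 (-0.032) and Mtor (-0.36), and in LPS + NCT503 against control for Ambra1 (-0.40). With no call under either setting, the sign also crossed zero under CPM scaling for 1 member in LPS against control (Atg4a, -0.50), 6 in LPS + NCT503 against LPS and 10 in LPS + NCT503 against control. The median of all genes under that scaling was -0.69 in LPS against control, below each of the first 10 values, and -0.37 in LPS + NCT503 against control. Under quantile normalization Ambra1 (-0.039) and Gabarap (-0.34) turned negative in LPS against control. The cause was not tested. Same-numbered replicates of different groups had correlations of -0.35 to 0.46 in their deviations from the group means (10683 genes), so the numbers were not taken as pairs. With the number as a replicate block, 14 rose and 17 fell, 17 rose and 5 fell, and 12 rose and 6 fell in the 3 comparisons. Of all genes, 4786 rose and 4928 fell, 4251 rose and 3935 fell, and 4128 rose and 3970 fell with that block. Atg9a in LPS + NCT503 against control was the 1 member that lost a call. Atg10 and Wipi1 had the fewest reads of the members, which limits the precision of their values.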
